A study of Danio rerio with 6 samples.

Results

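A set of 48 genes stood over 4-fold higher in a single pool of dissected zebrafish kidney tubules, UPHD25 replicate 3, than in each of the other 5 pools of the study. They were 48 of the 17497 genes with enough counts to be tested (0.274%), out of 32520 genes in the count table. A gene was taken when its log2 CPM in that pool lay more than 2 above the highest of the other 5, where CPM stands for counts scaled to a common library size with TMM factors and a prior count of 2 was added on the log scale. The members were thus chosen by their measured levels in all 6 pools, UPHD25 replicate 3 against the highest of the rest, and these levels are given here as a description with no test. The question put to the other pools was whether the same genes also moved in UPHD25 replicates 1 and 2.

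Most of the members with a described role are known from the eye or from the intestine. Rod and cone photoreceptors turn light into an electrical signal through an opsin, the G protein transducin and a cGMP phosphodiesterase, and lens fibres are filled with crystallins. Enterocytes, the absorptive cells of the intestine, carry peptidases and transporters on an apical brush border, and in mammals the proximal tubule of the kidney has a brush border with several of the same enzymes and carriers.

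All 6 pools came from Tg(PT:egfp) larvae, in which EGFP marks the proximal tubule, and all larvae were injected with gentamicin, an aminoglycoside that injures the tubule (gent-AKI), at 3 days post-fertilization (dpf). At 5 dpf, 2 days after injection, 3 pools were placed in 1 µM UPHD25 with 1% DMSO and 3 in 1% DMSO alone for 24 h, and the pronephros was collected at 6 dpf. UPHD25 is a methyl ester that acts as a prodrug of PTBA, a short-chain carboxylic acid that inhibits histone deacetylases. Each pool held the GFP+ pronephros dissected from 100 larvae after digestion with DTT and collagenase, no sort of single cells was described, and no uninjured pool was analysed here. In such bulk RNA, fewer cells of a type and less RNA per cell cannot be told apart, and the same holds for more.

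The libraries held 10781071 to 30750026 counts on genes, and 12326927 in UPHD25 replicate 3, so that 3 counts corresponded to 0.100 to 0.289 CPM. UPHD25 replicate 3 stood apart from the rest: its mean correlation across genes with the other pools was 0.919, against 0.939 to 0.953, and its TMM factor was 1.21, against 0.903 to 1.00. The label of pronephros could not be tested, as there was no pool of another tissue to compare with. Of 18 proximal tubule symbols listed, 8 genes were tested, CUBN, amn, SLC5A1 and CDH17 among them. These 8 summed to 302 CPM in UPHD25 replicate 3 and 105 to 323 CPM in the other pools. In the same pool the summed level of 15 inflammation genes was 1282 CPM, against 4091 to 7073 CPM, that of 11 heat shock genes was 1721 CPM, against 3559 to 12856 CPM, and that of 15 liver genes was 6166 CPM, against 9450 to 19117 CPM. The part of these shifts in the levels of the 48 genes was not tested.

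The same rule applied to each of the other pools gave far fewer genes. It took 0, 2 and 0 genes in DMSO replicates 1, 2 and 3, and 0 and 3 genes in UPHD25 replicates 1 and 2. In the opposite direction, 35 genes lay over 4-fold below every other pool in UPHD25 replicate 3, and 30 did so in UPHD25 replicate 2. UPHD25 replicate 3 was the highest pool for 4949 of the 17497 genes (28.3%).

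**Figure D1:**
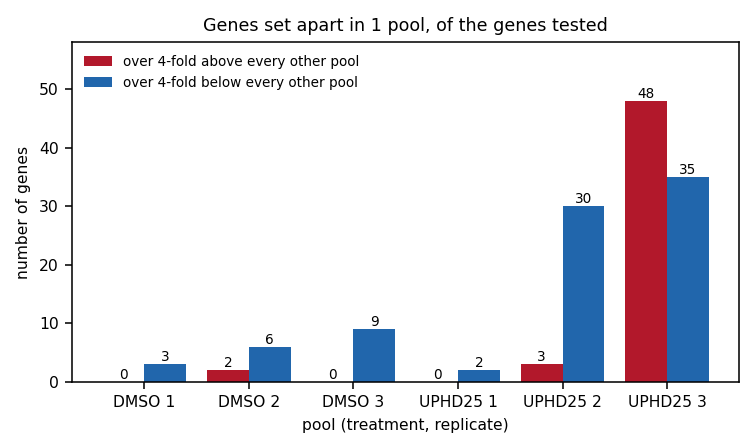
Number of genes, of the 17497 tested, that lay over 4-fold above (red bars) or over 4-fold below (blue bars) every other pool, for each of the 6 pools on the horizontal axis. UPHD25 replicate 3 has 48 genes above and 35 below, and no other pool has more than 3 above.

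No gap in the values marked the threshold. The members nearest to the threshold were SLC15A1 (ENSDARG00000044528), si:dkey-206f10.1, ENSDARG00000101629, which has no symbol, and krt97, at 2.01, 2.03, 2.05 and 2.06 above the next pool on the log2 scale. CLUL1, ANPEP and NETO1 lay just outside, at 1.996, 1.988 and 1.963. ANPEP (ENSDARG00000103878) is an aminopeptidase of the brush border, and its CPM was 25.0, 21.4 and 19.4 after DMSO, 26.5 and 13.0 in UPHD25 replicates 1 and 2, and 106 in replicate 3. A distance over 1 in place of 2 gave 508 genes and a distance over 3 gave 5. Among the 5 pools left out in turn, UPHD25 replicate 1 moved the size of the set most: with that pool out of the comparison, 167 genes were over 4-fold above the remaining pools, and the 119 genes added included 22 crystallins and 6 genes of a photoreceptor list. Leaving out UPHD25 replicate 2 gave 72 genes, leaving out DMSO replicates 1, 2 and 3 gave 48, 51 and 61, and scaling by library totals in place of TMM gave 103.

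By what their products are known to do, 13 members belong to the retina, synapse or lens, 19 to the intestine or a brush border, and 16 had another role or none that could be assigned. This grouping was made after the values were seen. The 13 retina, synapse and lens genes summed to 30.9, 22.7 and 27.7 CPM in DMSO replicates 1, 2 and 3, to 150.0 and 46.0 CPM in UPHD25 replicates 1 and 2, and to 723 CPM in replicate 3. Most of the 46.0 CPM in UPHD25 replicate 2 came from the crystallin genes crygm2d16 and crygm2d18, at 16.9 and 16.7 CPM there. The 19 intestine and brush border genes summed to 83.2, 61.1 and 129 CPM after DMSO, to 77.9 and 65.4 CPM in UPHD25 replicates 1 and 2, and to 824 CPM in replicate 3. The first group was thus already higher in UPHD25 replicate 1, and the second was not. Levels of single genes below are in CPM, which is not scaled by gene length, so they are compared between pools and not between genes.

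**Figure D2:**
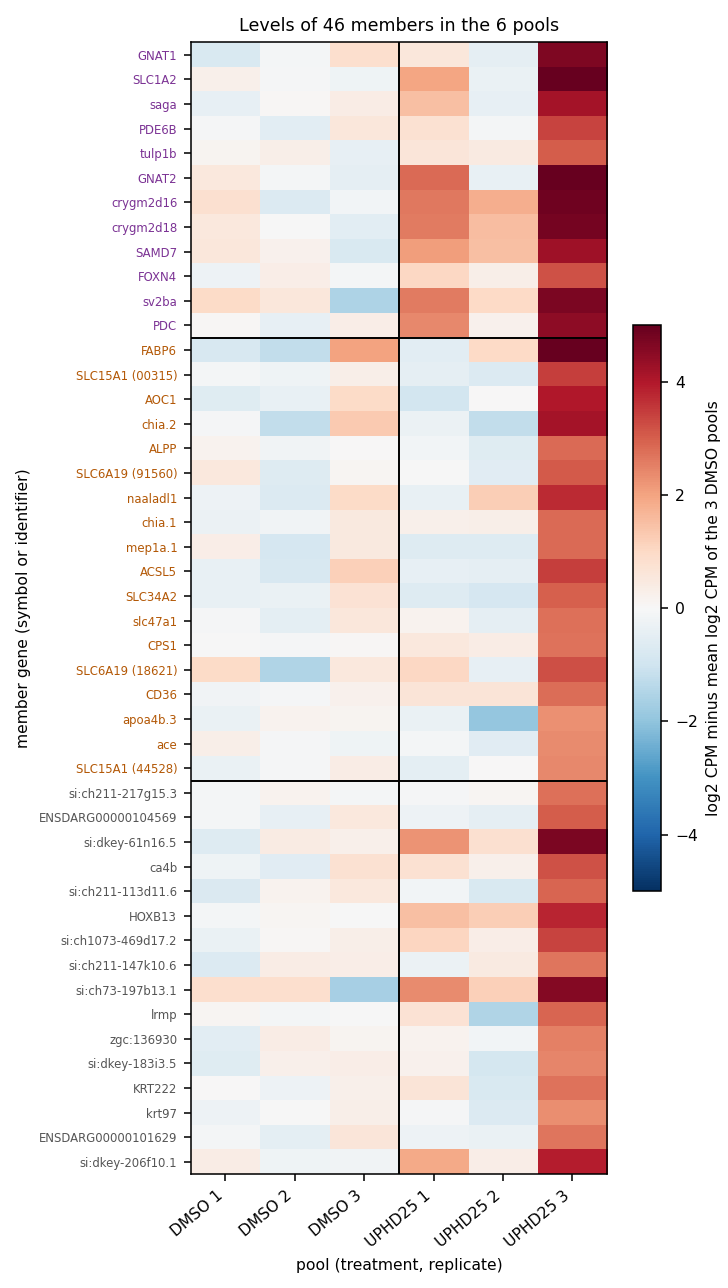
Level of 46 of the 48 genes (rows) in each of the 6 pools (columns), as log2 CPM minus the mean log2 CPM of the 3 DMSO pools, on a colour scale that ends at 5 in both directions. Gene names are purple for retina, synapse and lens, orange for intestine and brush border and grey for the rest, and the 5 digits after a shared symbol are the end of the gene identifier. The column of UPHD25 replicate 3 is red throughout, while UPHD25 replicate 1 is red mainly in the upper block.

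Several steps of the phototransduction cascade of rods were represented. GNAT1, the rod transducin alpha subunit, was the gene farthest from the next pool: 0.368, 0.655 and 1.33 CPM after DMSO, 1.11 and 0.481 CPM in UPHD25 replicates 1 and 2, and 20.5 CPM in replicate 3, a ratio of 15.4 to the next pool. Its levels in UPHD25 replicates 1 and 2 lay within the DMSO range, and these were 25 and 5 counts against 305 in replicate 3. PDE6B (ENSDARG00000011671), a subunit of the rod phosphodiesterase, was at 1.1, 0.748 and 1.75 CPM after DMSO and at 1.99, 1.06 and 12.8 CPM in UPHD25 replicates 1 to 3. The arrestin saga, which quenches the activated opsin, was at 1.27, 1.78 and 2.25 CPM after DMSO and at 5.09, 1.25 and 32.6 CPM in UPHD25 replicates 1 to 3. For both genes replicate 1 was above and replicate 2 within or below the DMSO range.

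Cone and shared photoreceptor genes were likewise at higher levels in UPHD25 replicate 1 than after DMSO. GNAT2, the cone transducin alpha subunit, was at 3.38, 2.15 and 1.66 CPM after DMSO, at 17.0 and 1.73 CPM in UPHD25 replicates 1 and 2, and at 78.5 CPM in replicate 3. PDC, phosducin, which binds the transducin beta and gamma subunits, was at 1.2, 0.842 and 1.5 CPM after DMSO and at 6.64, 1.35 and 28.2 CPM in UPHD25 replicates 1 to 3. In both, replicate 1 stood well above the DMSO pools and replicate 2 within their range. SAMD7, a photoreceptor nuclear protein, was at 0.401, 0.281 and 0.0832 CPM after DMSO, at 1.37 and 0.866 CPM in UPHD25 replicates 1 and 2, and at 6.45 CPM in replicate 3. Its DMSO levels rest on 1 to 12 counts, and it passed the filter on low counts through the UPHD25 pools alone, so that it had to be higher there. The same holds for the next gene. The tubby family gene tulp1b was at 0.416 to 0.748 CPM after DMSO and at 0.974, 0.866 and 5.77 CPM in UPHD25 replicates 1 to 3. FOXN4, which in the mouse retina specifies amacrine and horizontal cells, was at 1.1 to 1.68 CPM after DMSO and at 2.88, 1.63 and 12.9 CPM.

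The members linked to synapses were sv2ba, a synaptic vesicle glycoprotein, and SLC1A2 (ENSDARG00000052138), a glutamate transporter. The level of sv2ba was 1.04, 0.748 and 0.0832 CPM after DMSO and 3.41, 1.06 and 15.0 CPM in UPHD25 replicates 1 to 3. SLC1A2 was at 1.07, 0.842 and 0.749 CPM after DMSO and at 3.81, 0.673 and 37.5 CPM, so that replicate 2 was below the DMSO pools. PDE6B, PDC, SLC1A2 and, in the next group, both SLC15A1 and both SLC6A19 entries have a symbol that the reference names give to more than 1 gene identifier. How reads were divided between such copies is uncertain.

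The lens members, crygm2d16 and crygm2d18, were the clearest case of genes that were also higher in UPHD25 replicates 1 and 2. Both encode gamma-M crystallins, the densely packed proteins of fish lens fibres. The level of crygm2d16 was 8.25, 2.90 and 4.25 CPM after DMSO and 30.0, 16.9 and 138 CPM in UPHD25 replicates 1 to 3. That of crygm2d18 was 8.29, 5.61 and 3.91 CPM after DMSO and 35.4, 16.7 and 160 CPM. In each, UPHD25 replicates 1 and 2 both lay above the highest DMSO pool, while the level in replicate 3 was set by the rule. Without UPHD25 replicate 3, which chose them, the log2 fold change was 2.16 (SE 0.45) for crygm2d16 and 2.12 (SE 0.41) for crygm2d18, with an adjusted p of 0.319 for each in the quasi-likelihood test of edgeR (Benjamini-Hochberg adjusted). DESeq2's Wald test on the same 5 libraries gave adjusted p-values of 0.00238 and 0.00110. In simulated data of this comparison DESeq2 called more unchanged genes than edgeR, 32 against 7. Gamma-M crystallins form a large family of close copies, so the division of reads among them is uncertain too.

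Most other crystallins did not meet the rule but had a similar order of pools. Of 29 crystallin genes tested, 2 were members and 28 had their highest level in UPHD25 replicate 3, against 28.3% of all genes. In 27 of the 29, UPHD25 replicates 1 and 2 were both above all DMSO pools, against 15.1% of all genes. Their summed level was 884, 500 and 290 CPM in DMSO replicates 1, 2 and 3 and 4838, 1629 and 14530 CPM in UPHD25 replicates 1, 2 and 3. The median log2 fold change without replicate 3 was 2.47. In edgeR's quasi-likelihood test 0 of the 29 passed an adjusted p of 0.05, against 0% of all genes. At an unadjusted p under 0.05, 27 were higher, against 7.28% of all genes. These genes share a tissue and the same libraries, and many are close copies, so they are not separate observations.

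The intestine and brush border members were, with few exceptions, no higher in UPHD25 replicates 1 and 2 than after DMSO. FABP6, the bile acid binding protein of the ileum, was the gene with the largest difference from the DMSO mean, 5.30 on the log2 scale: 0.668, 0.468 and 5.49 CPM after DMSO, 0.841 and 2.60 CPM in UPHD25 replicates 1 and 2, and 54.2 CPM in replicate 3. DMSO replicate 3 was the next highest pool. The acidic chitinase chia.2 was at 11.7, 5.15 and 30.2 CPM after DMSO and at 10.0, 5.10 and 218 CPM in UPHD25 replicates 1 to 3, again with DMSO replicate 3 next. Its relative chia.1 was more even outside the chosen pool, at 2.74, 2.99 and 4.75 CPM after DMSO and 4.07, 4.23 and 25.1 CPM.

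Several peptidases of the brush border were members. The angiotensin-converting enzyme gene ace was at 18.7, 14.7 and 13.0 CPM after DMSO and at 14.2, 10.3 and 79.6 CPM. The metalloprotease mep1a.1, meprin alpha, was at 1.60, 0.655 and 1.83 CPM after DMSO and at 0.753, 0.769 and 9.60 CPM. In both, UPHD25 replicates 1 and 2 were within or just below the DMSO range. The dipeptidase-like naaladl1 was an exception in replicate 2, with 0.187 to 0.832 CPM after DMSO and 0.266, 1.06 and 6.51 CPM in UPHD25 replicates 1 to 3, on 2 to 11 counts outside replicate 3. The alkaline phosphatase gene ALPP, an enzyme anchored in the same membrane, was at 1.22 to 1.57 CPM after DMSO and at 1.24, 0.866 and 10.7 CPM.

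Carriers of peptides, amino acids and phosphate followed the same pattern, except SLC6A19 with ENSDARG00000018621, which was above all DMSO pools in UPHD25 replicate 1. SLC15A1, the oligopeptide transporter of the small intestine, was represented by both of its identifiers. ENSDARG00000100315 was at 0.842 to 1.25 CPM after DMSO and at 0.708, 0.577 and 12.2 CPM in UPHD25 replicates 1 to 3, and ENSDARG00000044528 at 8.35 to 13.7 CPM and at 7.39, 10.7 and 55.6 CPM. The first was below all DMSO pools in both UPHD25 replicates 1 and 2. It reached the level of the filter on low counts in 2 DMSO pools and in neither of these, so this difference is no sign of movement. SLC6A19, the neutral amino acid transporter, was represented by ENSDARG00000091560 at 7.12, 3.09 and 5.24 CPM after DMSO and 4.83, 3.27 and 42.1 CPM, and by ENSDARG00000018621 at 6.15, 1.03 and 4.58 CPM and 6.60, 2.31 and 30.1 CPM. SLC34A2, a sodium phosphate cotransporter, was at 2.71, 2.81 and 5.91 CPM after DMSO and at 2.21, 1.92 and 29.4 CPM, the other gene below all DMSO pools in UPHD25 replicates 1 and 2. The organic cation extruder slc47a1 was at 0.748 to 1.66 CPM after DMSO and at 1.24, 0.769 and 8.12 CPM.

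Genes of lipid uptake and of nitrogen metabolism completed this group. CD36, a fatty acid receptor, was at 5.05, 5.43 and 6.66 CPM after DMSO and at 8.90, 8.85 and 39.9 CPM in UPHD25 replicates 1 to 3. Together with CPS1, the carbamoyl phosphate synthetase, which was at 0.748 to 0.832 CPM after DMSO and at 1.2, 1.06 and 5.84 CPM, it was above all DMSO pools in UPHD25 replicates 1 and 2. For CPS1 this rests on few counts, 23, 8 and 10 after DMSO and 27 and 11 in UPHD25 replicates 1 and 2. The acyl-CoA synthetase ACSL5 was at 1.84, 1.31 and 5.58 CPM after DMSO and at 1.77, 1.73 and 27.8 CPM. The apolipoprotein gene apoa4b.3 was at 1.40 to 2.06 CPM after DMSO, at 1.42 and 0.385 CPM in UPHD25 replicates 1 and 2, and at 9.2 CPM in replicate 3. AOC1, a diamine oxidase, was at 0.702, 0.842 and 2.33 CPM after DMSO and at 0.531, 1.15 and 19.7 CPM.

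Within the DMSO pools the intestine and brush border members had an order of their own. DMSO replicate 3 was the highest DMSO pool for 14 of the 19, against 33.6% of all genes. It was the next highest of all 5 remaining pools for 11, against 3319 of all 17497 genes. For the retina, synapse and lens members DMSO replicate 3 was the highest DMSO pool in 5 of 13 and DMSO replicate 1 in 6, and over all 48 members DMSO replicates 1, 2 and 3 were so for 13, 8 and 27, against 33.3%, 33.2% and 33.6% of all genes. UPHD25 replicate 1 was the next highest pool for 12 of these 13, against 19.4% of all genes, and for 3 of the 19 intestine and brush border members. The 12 include SAMD7 and tulp1b, which passed the filter on low counts through the UPHD25 pools alone, so that UPHD25 had to rank above DMSO. In turn, the 11 include mep1a.1 and SLC15A1 (ENSDARG00000100315), which reached its level in neither UPHD25 replicate 1 nor 2. The same libraries, and genes that share a tissue, lie behind each of these counts, so the members are not separate observations.

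The remaining 16 members included keratins, a homeobox gene and many genes with no described role. The level of zgc:136930 was 34.5, 65.1 and 54.9 CPM after DMSO, 56.9 and 45.3 CPM in UPHD25 replicates 1 and 2, and 289 CPM in replicate 3. The gene si:dkey-183i3.5 was at 26.0 to 49.2 CPM after DMSO and 45.4, 21.4 and 216 CPM in UPHD25 replicates 1 to 3, and the keratin krt97 at 27.9 to 40.3 CPM after DMSO and 32.1, 20.5 and 168 CPM. For these 3 genes UPHD25 replicates 1 and 2 overlapped the DMSO pools or lay below them. The gene si:ch211-217g15.3 was even outside the chosen pool, at 1.66 to 2.06 CPM in the 5 other pools against 12.9 CPM in replicate 3. KRT222, another keratin, was at 3.18 to 4.58 CPM after DMSO and at 6.02, 2.21 and 26.0 CPM.

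The levels of some of these genes differed between the other UPHD25 pools and DMSO. HOXB13, a homeobox gene of the posterior body, was at 0.468, 0.561 and 0.499 CPM after DMSO and at 1.64, 1.35 and 8.73 CPM in UPHD25 replicates 1 to 3. It too reached the level of the filter in no DMSO pool and passed through the UPHD25 pools alone, so its difference is no sign of movement. It was singled out after its values were seen. The gene si:dkey-61n16.5 was at 0.535, 1.22 and 1.08 CPM after DMSO and at 4.74, 1.63 and 26.3 CPM, with a log2 fold change of 1.85 (SE 0.58). For si:dkey-206f10.1, at 0.561 to 0.902 CPM after DMSO, the levels were 2.83, 0.866 and 12 CPM, so that replicate 1 was above the DMSO pools and replicate 2 was not.

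Over all 48 members, movement in the other UPHD25 pools was uneven. UPHD25 replicate 1 was above all DMSO pools for 22 members, against 29.7% of all genes tested, and replicate 2 for 13, against 33.6%. Both were above all DMSO pools for 11 members, against 15.1% of all genes, and both were below for 2, against 13.2%. The 22 comprised 12 of the 13 retina, synapse and lens genes, 3 of the 19 intestine and brush border genes and 7 of the other 16. The 11 comprised 5, 2 and 4. Without UPHD25 replicate 2 the count rests on replicate 1 alone and is the 22 above, against 29.7% of all genes. Without UPHD25 replicate 1 it rests on replicate 2 alone and is the 13 above, against 33.6%. The filter on low counts bears on these counts: 3 members (SAMD7, tulp1b and HOXB13) reached its level in no DMSO pool and so passed it through the UPHD25 pools alone, and all 3 are among the 22 and the 11. In turn, 3 others (mep1a.1, SLC15A1 with ENSDARG00000100315 and si:ch211-113d11.6) reached it in neither UPHD25 replicate 1 nor 2, and 27 reached it in all 6 pools. That SLC15A1 entry is 1 of the 2 members below all DMSO pools in both.

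The sizes of the differences gave the same division. Against the mean log2 CPM of the DMSO pools, the median of the 13 retina, synapse and lens members was 2.1 in UPHD25 replicate 1, 0.20 in replicate 2 and 4.65 in replicate 3. The median of the 19 intestine and brush border members was -0.29, -0.45 and 3.00, and that of the other 16 was 0.42, -0.02 and 2.91. The 13 include SAMD7 and tulp1b, and the 16 include HOXB13, which passed the filter through the UPHD25 pools alone. In turn, the 19 include mep1a.1 and SLC15A1 (ENSDARG00000100315), and the 16 include si:ch211-113d11.6. These reached the level of the filter in neither UPHD25 replicate 1 nor 2, which favours lower values there. Over UPHD25 replicates 1 and 2 together the median of all 48 members was 0.16, against 0.01 for all genes tested. It was -0.23 without UPHD25 replicate 1, 0.40 without UPHD25 replicate 2 and -0.02, 0.08 and 0.41 without DMSO replicates 1, 2 and 3, so its sign depended on the pools used.

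**Figure D3:**
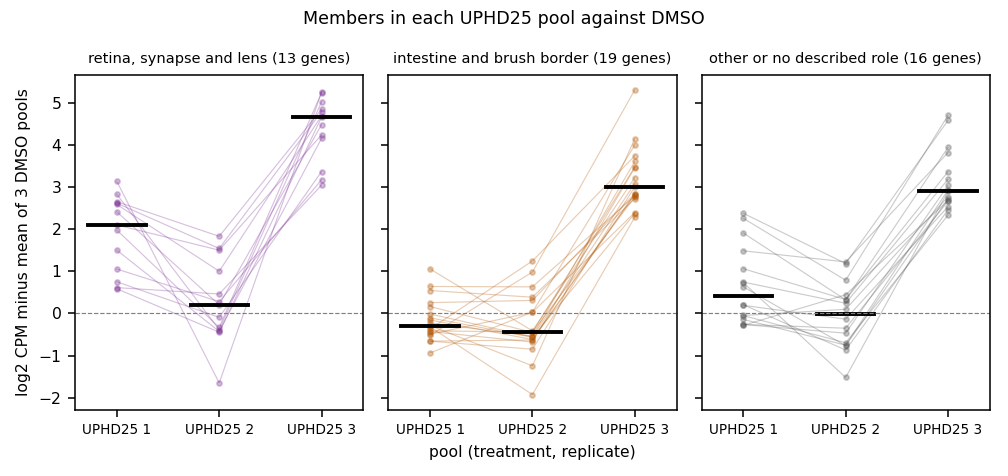
Difference of each member's log2 CPM in UPHD25 replicates 1, 2 and 3 (horizontal axis) from the mean of the 3 DMSO pools (vertical axis, dashed line at 0), in separate panels for the 3 groups of members. Points joined by thin lines are single genes and black bars are medians: 2.1, 0.20 and 4.65 on the left, -0.29, -0.45 and 3.00 in the middle, and 0.42, -0.02 and 2.91 on the right. SAMD7 and tulp1b (left) and HOXB13 (right) passed the filter on low counts through the UPHD25 pools alone. The genes mep1a.1 and SLC15A1 (ENSDARG00000100315) (middle) and si:ch211-113d11.6 (right) reached its level in neither UPHD25 replicate 1 nor 2.

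The test that left out UPHD25 replicate 3 compared UPHD25 replicates 1 and 2 with the 3 DMSO pools across all 17497 genes. In the quasi-likelihood test of edgeR (Benjamini-Hochberg adjusted), 0 of the 48 members and 0 of all genes (0%) passed an adjusted p of 0.05. At an unadjusted p under 0.05, 9 members were higher, against 7.28% of all genes, and 0 were lower, against 3.46%. SAMD7 and HOXB13, which the filter let through on the UPHD25 pools alone, are among the 9. The 9 comprised 5 retina, synapse and lens genes, 1 intestine and brush border gene (CD36, log2 fold change 0.64, SE 0.25) and 3 others. DESeq2's Wald test called 2 members, both crystallins, and 262 genes in all (1.5%). In simulated data of this comparison edgeR called 70 of 100 genes changed 4-fold and 10 of 100 changed 2-fold, so smaller changes can be missed. The p-values measure the spread between these pools, each a mixture of 100 larvae.

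The fitted log2 fold changes without UPHD25 replicate 3 ran from -1.03 to 2.16 over the 48 members. A value over 1 was found for 12 members, against 5.13% of all genes, of which 8 were retina, synapse and lens genes and 0 intestine and brush border genes, and which again include SAMD7 and HOXB13. Next to the crystallin pair, the largest included SAMD7 at 2.00 (SE 0.61), GNAT2 at 1.96 (SE 0.79), si:dkey-61n16.5, PDC at 1.79 (SE 0.63) and sv2ba at 1.78 (SE 0.78). Several depended on UPHD25 replicate 1: without it the log2 fold change was -0.50 for GNAT2, 0.18 for PDC, 0.65 for sv2ba and 0.86 for si:dkey-61n16.5. The lowest values belonged to chia.2 at -1.03 (SE 0.69), apoa4b.3 at -0.89 (SE 0.56), mep1a.1 at -0.86 (SE 0.54) and SLC34A2 at -0.86 (SE 0.45). Without DMSO replicate 3 those of chia.2 and SLC34A2 were -0.16 and -0.40, and that of apoa4b.3 was -2.20 without UPHD25 replicate 1 and -0.33 without UPHD25 replicate 2. That of chia.2 was -1.62 and -0.64 in these last fits. In the fit of all 5 libraries these genes had an adjusted p between 0.319 and 0.634 in the quasi-likelihood test of edgeR (Benjamini-Hochberg adjusted). That range does not cover the fits with a library left out. Among the lowest, mep1a.1 reached the level of the filter on low counts in neither UPHD25 replicate 1 nor 2.

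With all 6 pools in the fit, 0 genes (0%) passed an adjusted p of 0.05 in edgeR's quasi-likelihood test. DESeq2 called 642 of the 17497 genes tested and 10 of the 48 members. At an unadjusted p under 0.05, 23 members were higher, against 9.09% of all genes. Since UPHD25 replicate 3 chose the members, nothing was read from these counts.

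Marker lists of the same tissues also hold genes that are no members, whose levels the rule did not place highest in UPHD25 replicate 3. Of 14 photoreceptor and retina genes tested, 5 were members. Of the other 9, 7 were highest in UPHD25 replicate 3 and 7 were above all DMSO pools in UPHD25 replicate 1, against 28.3% and 29.7% of all genes. The summed level of these 9 was 27.2, 17.6 and 14.2 CPM in DMSO replicates 1 to 3 and 103 and 22.6 CPM in UPHD25 replicates 1 and 2. In UPHD25 replicate 3 it was 256 CPM, and the 5 members added 319 CPM to give 575 CPM for the list. The cone phosphodiesterase PDE6C, not a member, was at 1.42 to 5.05 CPM after DMSO and at 27.3, 1.73 and 84.9 CPM. Of 17 lens genes, none of them a member, 16 were highest in UPHD25 replicate 3, and the list summed to 206 to 625 CPM after DMSO and to 3495, 1185 and 10678 CPM. All of them but BFSP1, BFSP2, lim2.2 and lim2.3 are crystallins already counted above. The gene not highest in that pool was lim2.2. Genes of a list share a tissue and the same libraries, so here and below they are not separate observations.

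List symbols were matched by name and many found no match, so the lists were tested only in part. Of 11 intestine symbols 7 were matched and 6 genes tested. The listed slc15a1b was not tested under that symbol, while both SLC15A1 entries are members. The 6 genes held 1 member, chia.1, and 4 of the other 5 were highest in UPHD25 replicate 3, against 28.3% of all genes. VIL1, villin, the actin bundler of the microvillus, was at 21.1 to 43.9 CPM after DMSO and at 33.4, 13.9 and 132 CPM in UPHD25 replicates 1 to 3, and cdx1b, an intestinal transcription factor, at 4.04 to 8.16 CPM and at 5.89, 6.73 and 27.3 CPM. The exception was the abundant apolipoprotein gene apoa1b, at 5270 to 8725 CPM after DMSO and 11428, 2579 and 2823 CPM, which sets the summed level of that list. Among 13 epidermis genes, 0 were members and 9 were highest in UPHD25 replicate 3, with a sum of 3060 CPM there and 985 to 1498 CPM elsewhere. Of 8 proximal tubule genes tested, from 18 symbols, 0 were members and 3 were highest in that pool. The listed slc34a2a was not tested under that symbol, while SLC34A2 is a member. Of 11 exocrine pancreas genes, 0 were highest in that pool. What part tissue carried over in dissection had in the members' levels was not tested.

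**Figure D4:**
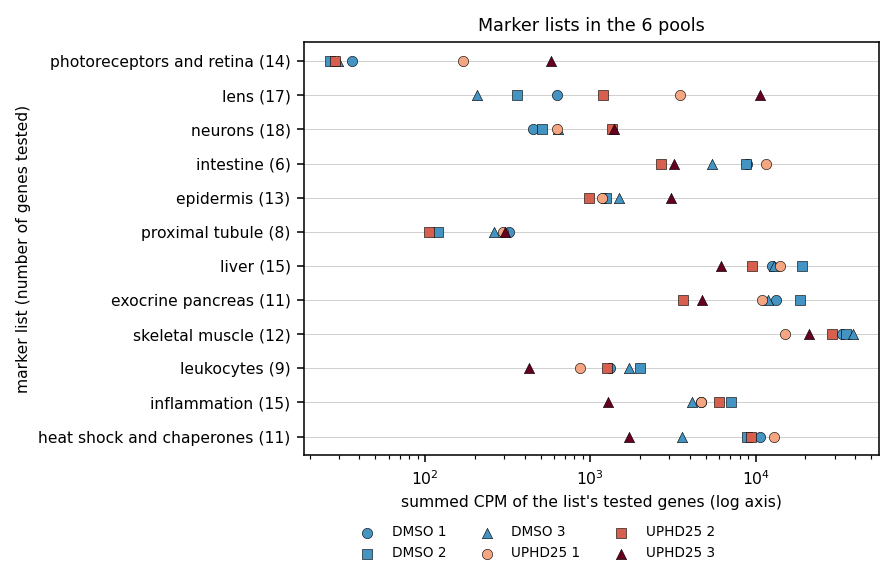
Summed CPM of the tested genes of 12 marker lists (vertical axis, number of genes in brackets) in the 6 pools, on a log axis. Blue symbols are DMSO pools, and orange, red and dark red symbols are UPHD25 replicates 1, 2 and 3. UPHD25 replicate 3 is the highest pool for photoreceptors and retina (575 CPM, of which 319 CPM are members), lens (10678 CPM) and epidermis (3060 CPM). It is also highest for neurons (1381 CPM), close to UPHD25 replicate 2 (1355 CPM). It is the lowest pool for inflammation (1282 CPM), heat shock (1721 CPM), liver (6166 CPM) and leukocyte genes (424 CPM).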

How the data were processed

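RNA from 6 pools of dissected pronephros (3 DMSO, 3 UPHD25) was sequenced as stranded, paired-end mRNA libraries. The deposited values are raw counts per gene, made by the authors with HISAT2 2.1.0 on danRer11 and featureCounts. Strandedness of counting and the annotation release were not given in the sources used here. Groups and replicate numbers were taken from the sample labels.

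Counts were analysed with edgeR 4.0.16 in R 4.3.3. Genes were kept by filterByExpr (a minimum count of 10 at the median library size in at least 3 libraries, and 15 in all), so each member reached that level in at least 2 pools besides UPHD25 replicate 3. TMM factors and log2 CPM with a prior count of 2 followed. Members were genes over 2 above the highest other pool. The quasi-likelihood test (two-sided, Benjamini-Hochberg over 17497 genes, threshold 0.05) compared 5 libraries, without UPHD25 replicate 3, and all 6. DESeq2 1.42.0 was an alternative, as were other scalings, filters, priors and distances, a replicate block and leaving out each library. The scripts were tested on data simulated for the 5 libraries. There edgeR called 10 of 100 genes changed 2-fold, 70 of 100 changed 4-fold and 7 unchanged genes. DESeq2 called 21, 81 and 32. No libraries were identical.

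Replicate numbers come from the labels. Same-numbered pools deviated together from their group means (correlations 0.49, 0.29 and 0.21), so the block was treated as a pairing. The study's methods name no block, so the reported fits have none.

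Gene symbols came from a reference name table (46 of 48 members, 16786 of 17497 genes). Named were members among the 12 farthest from the next pool, the 12 with the most CPM, those in a marker list, the 8 highest and 4 lowest fold changes without UPHD25 replicate 3 and the 3 nearest the threshold (30 in all), with further genes named by function. Of the members, 2 are not reported here by name, but all counts, sums and medians include them. The members and lists were chosen with earlier results of these data known.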

Additional observations from a re-analysis of the deposited data

Results flagged for a closer look

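The filter on low counts left out 10 genes that had 20 or more counts in UPHD25 replicate 3, at most 3 counts in every DMSO pool and a level over 4-fold above every other pool. They were singled out because they lie outside the tested genes and above the level of the control pools. The green cone opsin opn1mw1 had 2, 1 and 0 counts in DMSO replicates 1, 2 and 3, 80 and 0 counts in UPHD25 replicates 1 and 2, and 303 counts in replicate 3. CNGA1, the rod cGMP-gated channel subunit, had 1, 0 and 1 counts in the DMSO pools and 4, 1 and 32 in the UPHD25 pools, and the crystallin gene crygm2d19 had 3, 2 and 0 counts and 3, 0 and 45 counts. Others were gng14, cabp4, crygm2c, crygm2b, si:ch211-122a17.5 and zgc:153846.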

How the results depend on the processing

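The number of members was 103 with library totals (all 48 among them), 96 with no filter on low counts (47 shared), 27 with a minimum of 10 counts in all libraries (26 shared), 508 with a distance over 1 and 5 with a distance over 3. It lay between 44 and 50 with DESeq2 size factors, upper quartile scaling and prior counts of 0.5 and 5, and between 48 and 167 with 1 of the other pools left out, which was chosen after seeing the data. The members with UPHD25 replicates 1 and 2 above all DMSO pools numbered 29 with library totals, 21 with no filter and 5 with that minimum, against 15.5%, 12.8% and 15.1% of all genes, and between 12 and 22 with 1 library left out, against 20.1% to 33.6%. Their median difference ran from -0.23 to 0.41 with 1 library left out and from 0.03 to 0.43 under the other settings. Members called without UPHD25 replicate 3 numbered 2 with DESeq2 and 0 in every other fit, between 0 and 0 with 1 library left out. With the replicate block in edgeR's quasi-likelihood test 0 members were called (10 at an unadjusted p under 0.05, against 13.1% of all genes). The median was then 0.41, and the fit of all 6 pools still called 0 genes. Without UPHD25 replicate 3 the block leaves DMSO replicate 3 with no partner, so that fit rests on 2 pairs. Its 0 calls cannot show whether the pairing matters. DESeq2 called 642 genes over all 6 pools, a test added after seeing the data.

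For 11 members with the largest or lowest fold changes, 107 of 110 values under an alternative kept their direction and their side of the threshold. Another 2 passed it (both crystallins, in DESeq2) and 1 reversed, GNAT2 at -0.50 without UPHD25 replicate 1. Since no gene passed in the reported edgeR fit, keeping that side was nearly fixed in advance and says little. Sizes varied among the 107: PDC was at 1.79 as reported and at 0.18 without UPHD25 replicate 1. The filter on low counts favoured the direction of SAMD7 and of mep1a.1. Over the fits that left out 1 library the value of GNAT2 ran up to 2.78, without UPHD25 replicate 2, and the cause was not tested. DESeq2 gave no adjusted p for SAMD7, sv2ba and mep1a.1, which the 107 include as not passing the threshold. Fits and counts that leave out UPHD25 replicate 1 or 2 hold a lone UPHD25 library, which the fits assume to vary like the others. Depth limits members that rest on a few counts outside UPHD25 replicate 3, as 3 counts stood at up to 0.289 CPM.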

Other observations

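The filter on low counts left out 43 genes in all that had 20 or more counts in UPHD25 replicate 3 and a level over 4-fold above every other pool. Several are relatives of the members. CRYAA, the alpha A crystallin, had 17, 0 and 0 counts in DMSO replicates 1, 2 and 3 and 13, 3 and 148 counts in UPHD25 replicates 1, 2 and 3. The meprin genes mep1a.2 and MEP1B had 4 to 23 and 5 to 26 counts after DMSO, and 8, 3 and 116 and 7, 5 and 99 counts after UPHD25. MOGAT2, an acyltransferase of intestinal fat absorption, had 11, 2 and 14 counts and 9, 8 and 129 counts, and the chitinase gene chia.3 had 8, 2 and 6 counts and 8, 9 and 72 counts. ROM1, a rod outer segment membrane protein, had 7, 7 and 9 counts in the DMSO pools and 27, 1 and 136 in the UPHD25 pools.

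Neuropeptide genes were also found there. The gene oxt, which encodes the fish oxytocin, had 6, 3 and 2 counts in the DMSO pools and 2, 6 and 45 in the UPHD25 pools, and npvf had 2, 6 and 0 counts and 1, 8 and 65 counts. Of 18 neuron genes tested, 0 were members and 12 were highest in UPHD25 replicate 3, against 28.3% of all genes. Their summed level was 451, 506 and 636 CPM after DMSO and 627, 1355 and 1381 CPM in UPHD25 replicates 1, 2 and 3. In this sum replicates 2 and 3 were close to each other and replicate 1 was within the DMSO range. By gene, UPHD25 replicates 1 and 2 were both above all DMSO pools for 8 of the 18, against 15.1% of all genes. The summed level of the 9 photoreceptor genes that are no members had the other order, with 103 CPM in UPHD25 replicate 1 and 22.6 CPM in replicate 2.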
